A study of Mus musculus with 6 samples.

Results

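The genes described here encode the enzymes that build and sialylate mucin-type O-glycans, together with the sialyltransferases and the sialic acid supply that serve neighbouring glycan classes. A list of 42 gene symbols was matched by name to the deposited table of 28627 gene IDs, and 42 of 42 were found. They comprised 15 polypeptide GalNAc transferases, 5 core and branching genes, 6 alpha-2,3, 7 alpha-2,6 and 5 alpha-2,8 sialyltransferases and 4 sialic acid supply genes. After the filter on low values 40 of them entered the test. Galnt3 and Galnt6 had too few reads for it and are described by their reads.

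Retinal RNA came from pups at postnatal day 15, all exposed to the oxygen-induced retinopathy model, in which high oxygen stops the growth of retinal vessels and the return to room air is followed by sprouting of new ones. The groups were 3 libraries from Emcn+/+ pups and 3 from Emcn-/- littermates. Both groups went through the model, so there was no room-air control among these libraries. Emcn encodes endomucin, a heavily O-glycosylated sialomucin of venous and capillary endothelium. The labels name the genotype only, without the allele, the deleting Cre if any, or the strain. They do not say whether each library came from a separate animal, so p-values measure the spread between these libraries, which may be technical. The libraries held 14865868 to 17087621 reads. Emcn, the check of the labels, had normalised reads of 93.3, 80.6 and 100.5 in Emcn+/+ and 1.95, 1.04 and 4.62 in Emcn-/-, a log2 fold change of -4.83 ± 0.40 (SE, n = 3 per genotype; limma adjusted p = 0.0143).

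Mucin-type O-glycosylation starts in the Golgi, where a GalNAc transferase (Galnt family) places N-acetylgalactosamine on serine or threonine. C1galt1 adds galactose to make core 1 and needs the chaperone Cosmc, encoded by C1galt1c1. Gcnt1 starts the core 2 branch from it. Sialic acid then caps the chains in alpha-2,3, alpha-2,6 or alpha-2,8 linkage, and it reaches the Golgi as CMP-sialic acid, made by Gne, Nans and Cmas in turn and carried by Slc35a1. In the retina and brain the same kinds of enzyme also make gangliosides, the sialylated glycolipids abundant in neurons, and polysialic acid.

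Emcn+/+ replicate 3 was the only library with high Xist reads and no Ddx3y reads, hence the only female one, and its interferon-response genes summed to 4702 normalised reads against 434 to 671 in the others. Lens genes summed to 28284 in Emcn+/+ replicate 1 and to 13.1 to 123 elsewhere. Sums of rod, pigment epithelium and ciliary and iris markers lay higher in every Emcn-/- library than in every Emcn+/+ library (rod 662239 to 710700 against 601802 to 634937, pigment epithelium 8206 to 11458 against 3439 to 7142, ciliary and iris 807 to 1092 against 460 to 723), with 5 of 5, 6 of 6 and 3 of 3 markers positive. By gene, the genotypes did not overlap for 2 of 5, 4 of 6 and 2 of 3 of these markers, all higher in Emcn-/-. Over all tested genes 7.48% did so, and none of these markers passed the test. The sums of the other marker lists examined overlapped. Among those, astrocyte markers were 2 of 2 positive, and bipolar (4 of 4), interferon-response (5 of 5) and tested lens markers (2 of 2) were negative. Endothelial markers summed to 5865 to 6361 in Emcn+/+ and to 5546, 3757 and 6013 in Emcn-/- replicates 1, 2 and 3. Of the endothelial markers 7 of 8 were negative, with a median log2 fold change of -0.25. In such bulk RNA, fewer cells of a type and less RNA per cell cannot be told apart. The titles of the libraries fall into a low-numbered series of 4 (Emcn+/+ 1 and 2, Emcn-/- 1 and 2) and a high-numbered series of 2 (replicate 3 of each genotype); what the numbers mean is not stated.

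No enzyme gene passed the test for genotype. Of 40 tested members, 0 had a limma adjusted p under 0.05, where 0.00599% of the 16681 genes tested passed, a share made up of Emcn alone. The members' adjusted p lay between 0.534 and 0.997. By unadjusted limma p 1 of 40 was under 0.05, against 8.14% of all tested genes. edgeR called 0 of 40 members and 0.00599% of all genes. DESeq2 gave an adjusted p to only 20 of the 40 members and to 6972 genes, and called 0 of these members and 1.18% of these genes. Without its own filter it gave one to all 40 and to 16665 genes, and called 0 of these members and 0.402% of these genes. Without Emcn+/+ replicate 3, limma called 0 members and 0.905% of all genes (151). The smallest adjusted p that any member had over all alternatives was 0.165. The genotypes did not overlap for 4 of 40, 3 higher in Emcn-/- (7.48% of all genes) and 1 lower (6.94%), against 14.4% in either direction. A second, less abundant ID of St6galnac2, not counted among the 40, also lay lower and had an unadjusted limma p of 0.0156. Within the 4 low-numbered libraries 18 of 40 members were apart by genotype (46% of all genes), of which 7 had the same direction in the high-numbered pair (58.5% of all genes apart) and 11 the opposite one (41.5%).

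The members' folds were small and balanced around 0. Log2 fold changes were positive for 19 and negative for 21, with a median of -0.01 against 0.01 over all tested genes. Each ± after a log2 fold change is its SE from limma, with n = 3 per genotype. Removing a trend on exonic length brought the median of the alpha-2,8 group from -0.12 to -0.04 and of the alpha-2,6 group from -0.07 to -0.04. The median of the core and branching genes went from -0.06 to -0.03 and of the GalNAc transferases from 0.05 to 0.02. For the other groups it moved less, from 0.06 to 0.05 for alpha-2,3 and from 0.08 to 0.06 for the supply genes. For 37 of 40 members, leaving out some 1 library moved the log2 fold change by over 1.5 times or turned its sign. The other 3 were St6galnac4, St6gal1 and Galnt14. For members whose genotypes did not overlap, St6galnac4 and St6gal1 among them, leaving out a library could not turn the sign. Because the rule is a ratio, log2 fold changes near 0, such as 0.00424 for Galnt2, meet it with small moves. The same share over all tested genes was not computed. The members' median absolute fold change was 0.09 against 0.10 for all genes. The unadjusted 95% interval lay within 0.5 log2 either way for 34 of 40 and within 1 for 38, the exceptions being Galnt12 and Gcnt1. The summed level of all members was 4685 ± 28.0 normalised reads per kb of exon in Emcn+/+ and 4725 ± 65.8 in Emcn-/- (SD, n = 3). The highest library exceeded the lowest by a median of 1.32-fold over the tested members, and by less than 1.5-fold for 34 of 40.

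**Figure D1:**
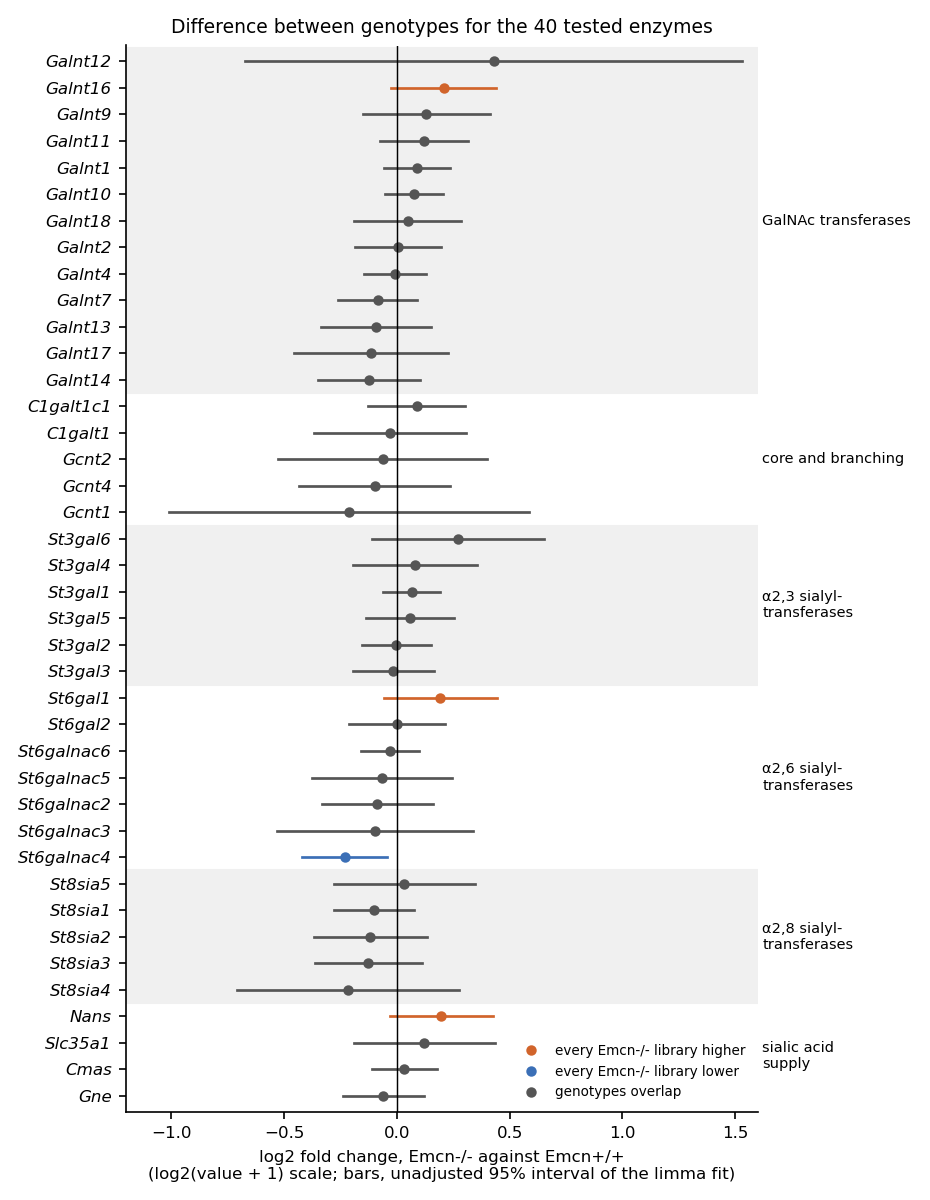
Log2 fold change of Emcn-/- over Emcn+/+ for each tested member, drawn by role, with bars for the 95% confidence interval (limma, 3 libraries per genotype). The intervals are unadjusted. That of St6galnac4 (-0.42 to -0.04) is the only one without 0, and those of Galnt12 and Gcnt1 are the widest.

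The GalNAc transferases were the largest group, with 8 of the 13 tested positive and 5 negative, a median of 0.05, and 0 past the threshold. Galnt16 (chr12:80518277-80630972, GRCm38, plus strand) had normalised reads of 291, 302 and 248 in Emcn+/+ against 339, 306 and 324 in Emcn-/-. The lowest Emcn-/- library was 306 against a highest Emcn+/+ value of 302, so the genotypes did not overlap, and the gap between them was small beside the spread within Emcn+/+. Its log2 fold change was 0.21 ± 0.10 (SE, limma adjusted p = 0.643), 0.12 in the low-numbered and 0.39 in the high-numbered libraries. Without Emcn+/+ replicate 3 it was 0.12.

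RefSeq lists several starts for Galnt16. The most upstream of them, with 250 bases before it and 50 after (GRCm38.p6, chr12:80518221-80518520, plus strand), is shown because the gene's genotypes did not overlap; capitals mark CCAAT read on the other strand.
Galnt16: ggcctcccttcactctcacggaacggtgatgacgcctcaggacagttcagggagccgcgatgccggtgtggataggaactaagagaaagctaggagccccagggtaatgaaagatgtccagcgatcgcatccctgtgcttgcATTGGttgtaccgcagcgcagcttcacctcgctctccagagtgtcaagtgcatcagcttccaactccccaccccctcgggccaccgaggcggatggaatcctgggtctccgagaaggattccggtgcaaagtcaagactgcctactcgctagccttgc
The same 300-base windows were available for 29 of 42 members, 43 windows in all, and were searched on both strands for the GC box GGGCGG, the hypoxia response core ACGTG, the TATA box TATAAA and CCAAT; none of these words contains another. GGGCGG was in 53.5% of member windows against 35.7% of all 32851, ACGTG in 20.9% against 19.6%, TATAAA in 4.65% against 13.6% and CCAAT in 32.6% against 37.4%. The windows' median GC content was 61.3% against 52.7%. The Galnt16 windows not shown held no match to any of these words. A match describes letters only.

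Per kb of exon, Galnt10 (309) stood above Galnt7 (252) and Galnt2 (251), which overlapped and changed places between libraries. Of the 4282 exonic bases of Galnt2, 3854 are shared with the readthrough gene Gm20388, so their reads cannot be told apart here. Galnt1, one of the broadly acting initiators, had 1096, 1161 and 1212 in Emcn+/+ against 1304, 1189.8 and 1198 in Emcn-/-, and overlapped between genotypes (0.09 ± 0.06, limma adjusted p = 0.727). Galnt10, the GalNAc transferase with the highest level per kb, had normalised reads of 1855, 1828 and 1695 in Emcn+/+ against 1870.5, 1956 and 1844 in Emcn-/-. The ranges of the genotypes overlapped here too (0.08 ± 0.06, adjusted p = 0.736). Galnt11, whose product modifies Notch1, had 684, 616 and 717 in Emcn+/+ against 723, 798 and 674 in Emcn-/-, with the highest value in Emcn-/- replicate 2 (0.12 ± 0.09, adjusted p = 0.725). Galnt14 had 213, 241 and 232 in Emcn+/+ against 212, 201 and 214 in Emcn-/-, and its lowest value was in Emcn-/- replicate 2 (-0.12 ± 0.10, adjusted p = 0.759).

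The other tested transferases are given by their mean level over the 6 libraries, in normalised reads per kb of exon, and their log2 fold change. They were Galnt7, which prefers peptides that already carry GalNAc (252 per kb, -0.09 ± 0.08), Galnt4 (154 per kb, -0.01 ± 0.06), Galnt18 (152 per kb, 0.05 ± 0.10), Galnt13, a transferase of neurons (123 per kb, -0.09 ± 0.11), Galnt17 (72.6 per kb, -0.12 ± 0.15), Galnt9, known mainly from brain (65.2 per kb, 0.13 ± 0.12), and Galnt2, a broadly expressed initiator (251 per kb, 0.00 ± 0.08). None of these had a limma adjusted p under 0.784, and their genotypes overlapped. Galnt12, shown for its spread after its values were seen, was low, with normalised reads of 25.9, 7.41 and 9.83 in Emcn+/+ against 15.6, 12.4 and 25.9 in Emcn-/-. Its highest values were Emcn+/+ replicate 1 and Emcn-/- replicate 3, and its fold was the least precise of the group (0.43 ± 0.49, limma adjusted p = 0.829).

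Galnt3 and Galnt6 fell below the filter. Galnt6 had 14 reads over the Emcn+/+ libraries (2, 4 and 8) and 1 over the Emcn-/- libraries (0, 0 and 1), a pooled ratio of 0.069 with an exact 95% interval from 0.002 to 0.452, which covers counting error only. Galnt3, known for its action on the hormone Fgf23, had 4, 6 and 5 against 7, 12 and 8 reads, 15 and 27 in all, a ratio of 1.73 from 0.890 to 3.50. Without the filter their limma p were 0.00552 unadjusted and 0.498 adjusted for Galnt6, and 0.178 and 0.772 for Galnt3. The genotypes did not overlap for either gene, against 12.2% of all genes with a read.

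The core and branching genes were 1 positive and 4 negative, median -0.06. C1galt1, the core 1 synthase, had normalised reads of 262, 224 and 179 in Emcn+/+ against 205, 203 and 237 in Emcn-/- (-0.03 ± 0.15, limma adjusted p = 0.969); its highest and lowest values were both in Emcn+/+. Its chaperone gene C1galt1c1 had 329, 349 and 344 in Emcn+/+ against 328, 362 and 400.2 in Emcn-/- (0.09 ± 0.09, adjusted p = 0.815). Per kb of exon, C1galt1c1 (243) stood 6.77 times above C1galt1 (35.9) in 6 of 6 libraries, and C1galt1 was followed by Gcnt4 with overlapping ranges. Gcnt1, the core 2 branching enzyme, had 54.6 normalised reads in Emcn+/+ replicate 3 and 21.8 to 30.1 in the other 5 libraries. Leaving that library out turned its log2 fold change from -0.21 to 0.19. Interferon-response genes were highest in the same library, and their part in the value was not tested.

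Gcnt2, which makes the branches of the I antigen, stood at 16.5 normalised reads per kb with a log2 fold change of -0.06 ± 0.20, and Gcnt4, another core 2 enzyme, at 32.7 with -0.10 ± 0.15. Both overlapped between genotypes (limma adjusted p = 0.953 and 0.880).

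**Figure D2:**
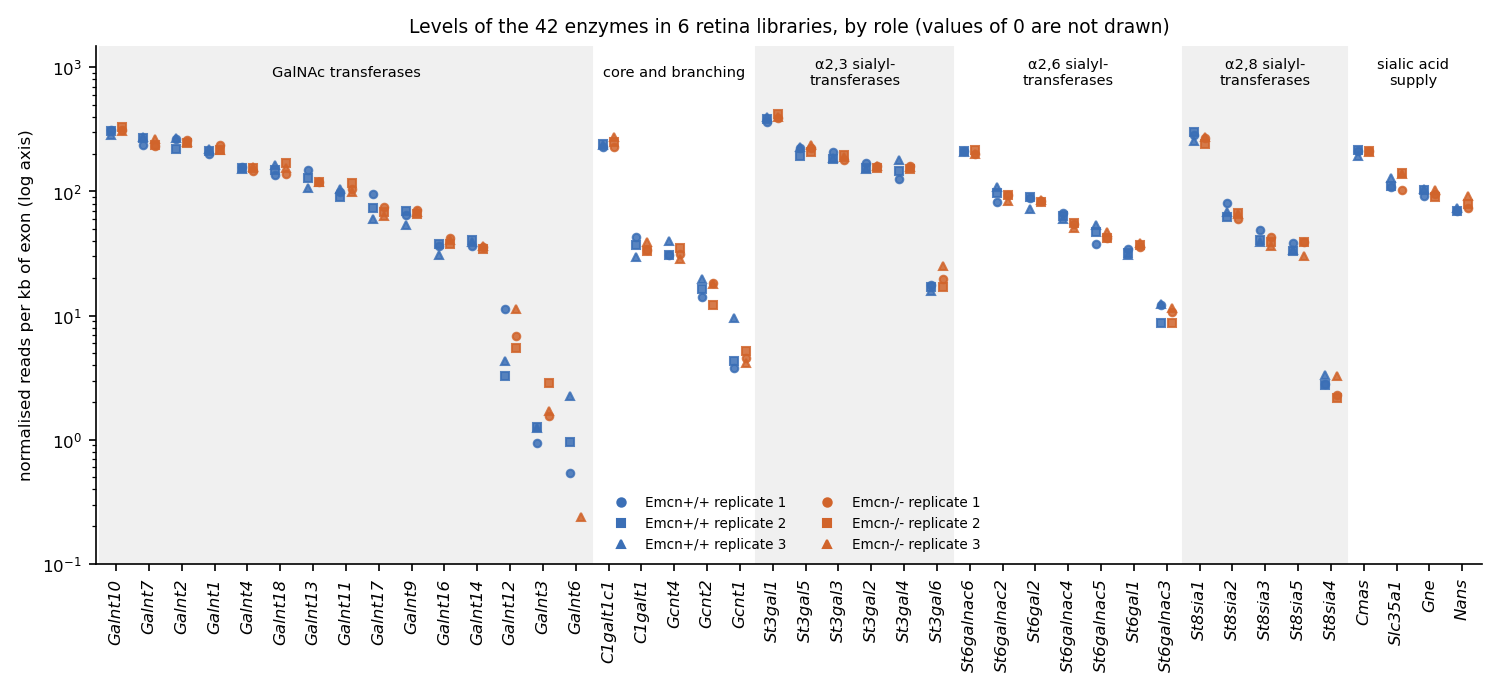
Level of each member in normalised reads per kb of exon, by role, with a point for each of the 6 libraries on a log axis. Values of 0 are not drawn, as for Galnt6 in Emcn-/- replicates 1 and 2. St3gal1, Galnt10 and St8sia1 are the highest, and Galnt3, Galnt6, St8sia4 and Gcnt1 the lowest.

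The alpha-2,3 sialyltransferases were 4 positive and 2 negative (median 0.06). St3gal1, which caps core 1 with sialic acid, had the highest level of all 42 members, 393 normalised reads per kb. It had normalised reads of 2497, 2653 and 2732 in Emcn+/+ against 2682, 2866 and 2705 in Emcn-/-, with Emcn+/+ replicates 1 and 2 below all Emcn-/- values (0.07 ± 0.06, limma adjusted p = 0.767). St3gal1 made up 32.9% to 36.4% of the group's level per kb in a library. Next in level was St3gal5, the GM3 synthase that begins ganglioside synthesis (219.7 per kb, 0.06 ± 0.09), followed by St3gal3 (190.0 per kb, -0.02 ± 0.08), St3gal2 (158 per kb, -0.00 ± 0.07) and St3gal4 (154 per kb, 0.08 ± 0.12). Neighbours in that order overlapped between St3gal5 and St3gal3 and between St3gal2 and St3gal4, and no genotype difference among these 4 had a limma adjusted p under 0.876. St3gal6 was lowest in the group and had 109, 105 and 97.2 in Emcn+/+ against 121, 105 and 154 in Emcn-/-, its highest value in Emcn-/- replicate 3 (0.27 ± 0.17, limma adjusted p = 0.696). It was 0.07 in the low-numbered and 0.66 in the high-numbered libraries. Of its exonic bases 25.97% lie over the opposite-strand gene Dcbld2 (mean 409 normalised reads), whose reads there cannot be told apart from its own. Without Emcn-/- replicate 3 the log2 fold change of St3gal6 was 0.12.

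The alpha-2,6 sialyltransferases were 2 positive and 5 negative (median -0.07). They held the tested member with the smallest p once the second St6galnac2 ID was set aside. St6galnac4, which adds sialic acid to the GalNAc of sialylated core 1, lies at chr2:32587095-32599698 (GRCm38, plus strand). It had normalised reads of 438, 408 and 389.9 in Emcn+/+ against 356, 363 and 332 in Emcn-/-. Every Emcn-/- library lay below every Emcn+/+ library, and the nearest pair was 389.9 and 363. The log2 fold change was -0.23 ± 0.08 (SE, limma unadjusted p = 0.022, adjusted p = 0.534). With 1 library left out it was -0.27 to -0.19 (limma adjusted p at least 0.180). The difference was -0.23 in the low-numbered and -0.23 in the high-numbered libraries. As the genotypes did not overlap, neither leaving out a library nor splitting the series could turn the sign of this difference. The rod, pigment epithelium and ciliary and iris marker sums were higher in the same 3 Emcn-/- libraries, and their part in it was not tested. The pooled reads of Emcn-/- over Emcn+/+ gave a ratio of 0.849 (exact 95% interval 0.782 to 0.922, counting error only). St6galnac6 begins 10 bases after St6galnac4 on the same strand and overlapped between genotypes, with 1028, 1012 and 995 in Emcn+/+ against 972, 1032 and 969 in Emcn-/- (-0.03 ± 0.06, adjusted p = 0.907). The ratio of St6galnac4 to St6galnac6 normalised reads in a library was 0.426, 0.403 and 0.392 in Emcn+/+ and 0.367, 0.352 and 0.343 in Emcn-/-, a pair chosen after its values were seen and without a test.

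The window at the St6galnac4 start (GRCm38.p6, chr2:32586828-32587127, plus strand) is shown because the gene has the smallest p of the tested members, the second St6galnac2 ID set aside. Capitals mark 3 CCGCCC (the GC box on the other strand) and 1 CCAAT.
St6galnac4: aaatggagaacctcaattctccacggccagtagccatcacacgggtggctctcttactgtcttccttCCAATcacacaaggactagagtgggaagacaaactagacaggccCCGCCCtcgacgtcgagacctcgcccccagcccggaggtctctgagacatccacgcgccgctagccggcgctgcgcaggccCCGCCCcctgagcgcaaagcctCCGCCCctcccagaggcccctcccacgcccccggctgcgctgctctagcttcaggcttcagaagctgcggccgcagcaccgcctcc
St6gal1, which sialylates N-glycans in alpha-2,6 linkage (chr16:23224740-23360350, plus strand), had normalised reads of 170.1, 157 and 151 in Emcn+/+ against 175, 182 and 189 in Emcn-/-. Every Emcn-/- value lay above every Emcn+/+ value (0.19 ± 0.11, limma adjusted p = 0.682), by 0.13 in the low-numbered and 0.32 in the high-numbered libraries, and by 0.15 to 0.24 with 1 library left out. With values apart in this way, none of these subsets could turn the sign. The most upstream RefSeq window of St6gal1 (chr16:23224490-23224789, plus strand) holds 1 CCAAT and 1 CCGCCC, in capitals, and is given because the gene's genotypes did not overlap. Of the St6gal1 windows not shown, the next holds 1 match to ACGTG and 1 to CCAAT, and the last 2 to CCAAT.
St6gal1: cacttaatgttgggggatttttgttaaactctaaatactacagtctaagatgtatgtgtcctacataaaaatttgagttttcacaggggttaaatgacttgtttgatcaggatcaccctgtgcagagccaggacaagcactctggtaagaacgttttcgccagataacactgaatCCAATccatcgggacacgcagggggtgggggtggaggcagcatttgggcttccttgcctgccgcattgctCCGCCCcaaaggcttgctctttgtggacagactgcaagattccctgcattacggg

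St6galnac2 is listed under a pair of gene IDs that share 383 bases of exon. The main ID had normalised reads of 479, 564 and 633 in Emcn+/+ against 546, 545 and 481 in Emcn-/- (-0.09 ± 0.11, limma adjusted p = 0.851), and the second (chr11:116677483-116681290, minus strand) had 51.9, 51.9 and 43.7 against 35.1, 31.1 and 28.6. The second did not overlap (log2 fold change -0.62 ± 0.21, limma unadjusted p = 0.0156, adjusted p = 0.522), a smaller p than that of St6galnac4. It took 6.45% to 9.77% of both IDs' reads in Emcn+/+ and 5.41% to 6.03% in Emcn-/-. How the counting divided reads between them is not known here. With the IDs summed, an alternative chosen after seeing the data, the log2 fold change was -0.13 (limma adjusted p = 0.757).

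Among the rest of the alpha-2,6 group, St6galnac6, an enzyme of ganglioside sialylation, made up 37.9% to 40.2% of the group's level per kb in a library. St6gal2, the second N-glycan sialyltransferase, stood at 83.4 per kb, 0.00 ± 0.09, St6galnac5, another ganglioside enzyme, at 45.0 per kb, -0.07 ± 0.14, and St6galnac3 at 10.8 per kb, -0.10 ± 0.19 (normalised reads per kb, then log2 fold change). Their genotypes overlapped, with limma adjusted p of 0.997, 0.917 and 0.912.

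The alpha-2,8 sialyltransferases, which make gangliosides and polysialic acid, were 1 positive and 4 negative, median -0.12. Their summed level was 433 ± 31.6 reads per kb in Emcn+/+ and 404 ± 11.96 in Emcn-/- (SD, n = 3). St8sia1, the GD3 synthase, made up 62.1% to 68.6% of that level. It had normalised reads of 2679.9, 2837 and 2363 in Emcn+/+ against 2502, 2265 and 2563 in Emcn-/- and the genotypes overlapped (-0.10 ± 0.08, limma adjusted p = 0.745). St8sia3 had 575, 479 and 459.8 in Emcn+/+ against 502, 454 and 426 in Emcn-/- (-0.13 ± 0.10, adjusted p = 0.764), with the highest and the lowest value in different genotypes but ranges that overlap. St8sia4, a polysialic acid synthase, was near the lowest level of the members (2.76 per kb, -0.22 ± 0.22), while St8sia2, the other polysialic acid synthase, stood at 67.6 per kb, -0.12 ± 0.11 and the ganglioside enzyme St8sia5 at 35.7 per kb, 0.03 ± 0.14. With the length trend removed, the log2 fold changes of St8sia1, St8sia3 and St8sia4 came to -0.04, -0.04 and -0.05. St8sia2 stayed at -0.11, and St8sia5 stood at 0.04. St8sia4, St8sia2 and St8sia5 overlapped between genotypes, with limma adjusted p of 0.804, 0.795 and 0.963.

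The sialic acid supply genes were 3 positive and 1 negative (median 0.08), with summed levels of 494 ± 8.83 in Emcn+/+ and 517 ± 27.7 in Emcn-/-. Nans, the sialic acid 9-phosphate synthase (chr4:46489248-46503632, plus strand), had normalised reads of 320.5, 317 and 335 in Emcn+/+ against 336, 363 and 421 in Emcn-/-. All Emcn-/- values were above all Emcn+/+ values, the nearest pair being 335 and 336 (0.20 ± 0.10, limma adjusted p = 0.646; 0.13 in the low-numbered and 0.33 in the high-numbered libraries). Without Emcn-/- replicate 3 it was 0.11. Of its exonic bases 29.6% lie over the antisense gene Trim14 (mean 6.55 normalised reads), and whether the counting used strand is not known here, so reads over the shared bases cannot be told apart. Gne, the epimerase and kinase that begins the pathway, had 590.1, 658 and 669 in Emcn+/+ against 611, 576 and 653 in Emcn-/- (-0.06 ± 0.08, adjusted p = 0.861). Cmas, which activates sialic acid to CMP-sialic acid, had 1003, 1012 and 907 in Emcn+/+ against 1008, 993 and 988 in Emcn-/-, and the Golgi transporter gene Slc35a1 had 249, 255 and 296 in Emcn+/+ against 238, 325 and 314 in Emcn-/-. For Gne, Cmas and Slc35a1 the genotypes overlapped, and the log2 fold changes of the last pair were 0.03 ± 0.06 and 0.12 ± 0.14 (adjusted p = 0.907 and 0.827). The 3 libraries in which Galnt16, St6gal1 and Nans were higher, and in which the second St6galnac2 ID was lower, are also those with the higher rod, pigment epithelium and ciliary and iris marker sums, whose part in these values was not tested.

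**Figure D3:**
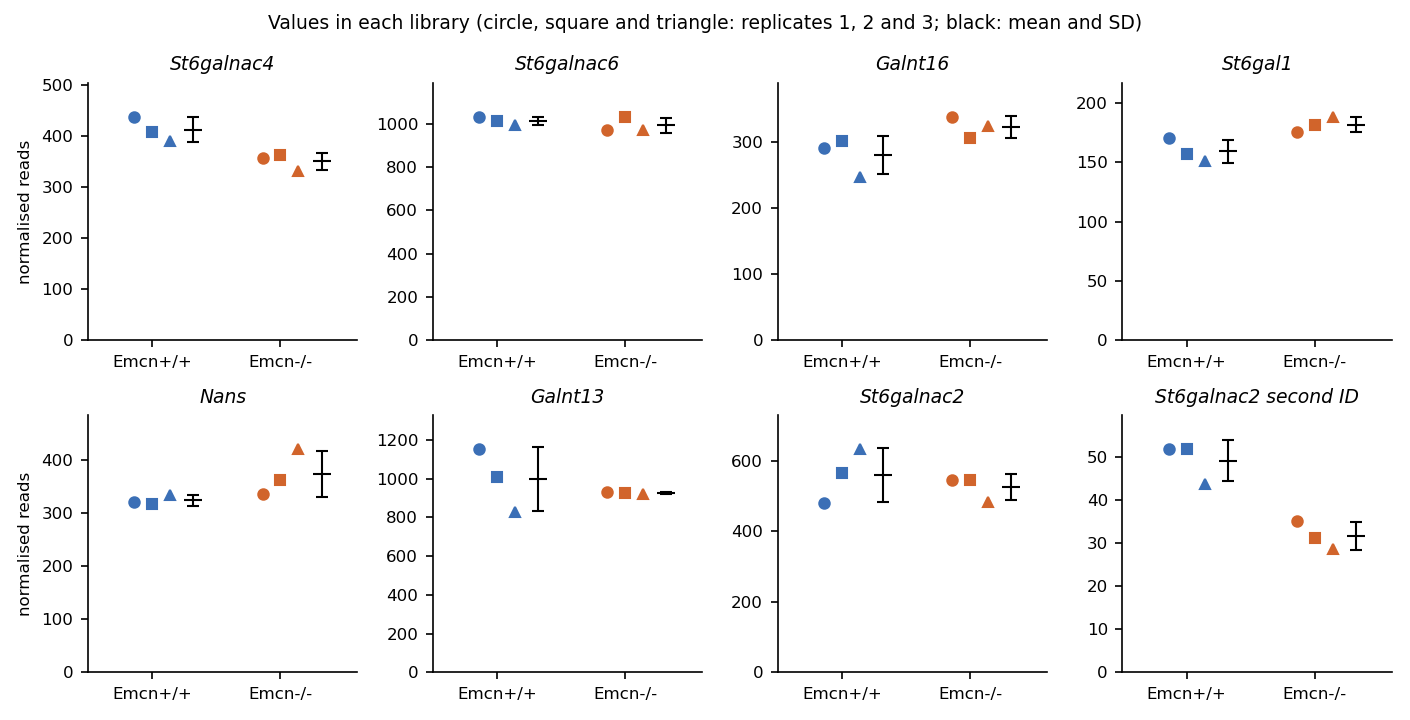
Normalised reads per library for 7 members and the second St6galnac2 ID, each in its own panel with a point per library and the mean of each genotype. St6galnac4 is lower in all 3 Emcn-/- libraries, and Galnt16, St6gal1 and Nans are higher.

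**Figure D4:**
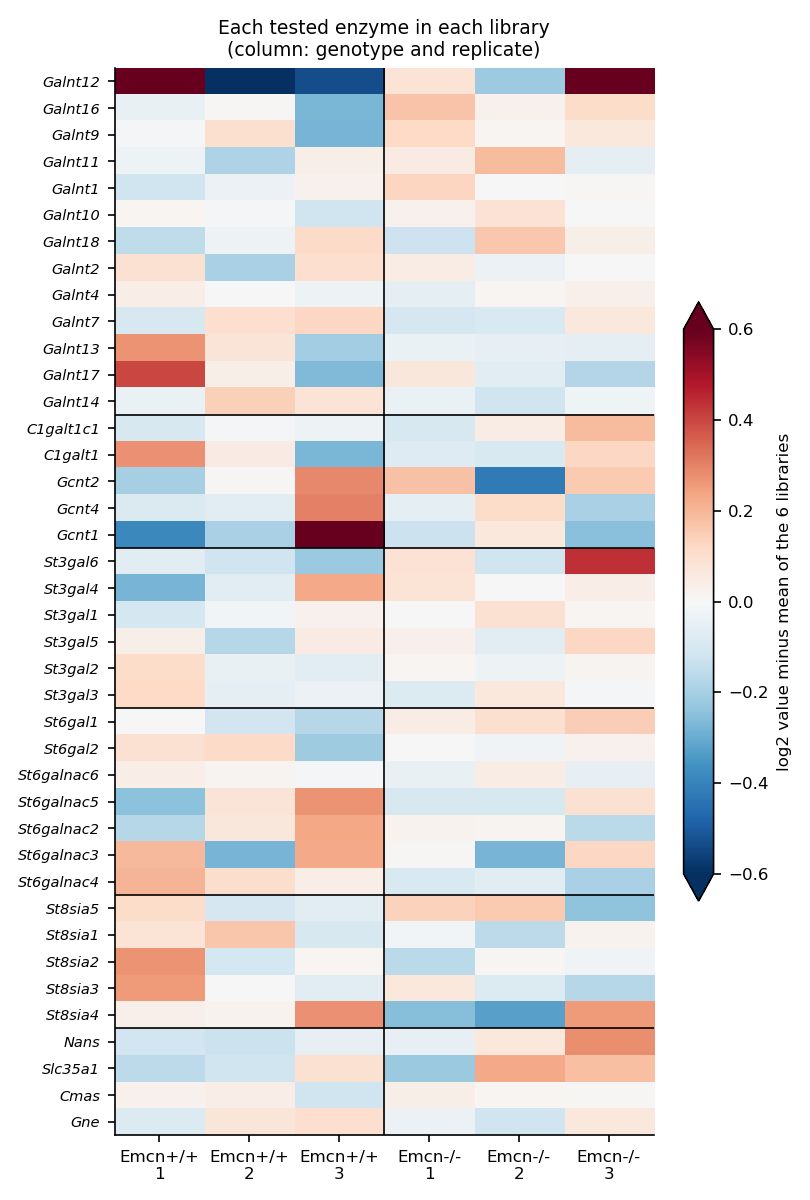
Difference of each member from its own mean over the 6 libraries, in log2 units from -0.6 to 0.6, with a row per member and a column per library. Emcn+/+ replicate 3 is the library farthest from the mean for 12 of 40 members.

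Across the remaining genes of the same pathways, 76 of 81 listed symbols were found and 64 tested. Of these 30 were positive and 34 negative with a median of -0.01, and 1, Emcn, passed. The next in p were B3gnt5, Fut9 and Podxl2. B3gnt5, which extends glycolipid and glycan chains, had normalised reads of 89.2, 71.4 and 73.2 in Emcn+/+ against 54.5, 51.9 and 40.7 in Emcn-/- (-0.66 ± 0.19, limma adjusted p = 0.476). The fucosyltransferase Fut9 had 379, 346 and 296 in Emcn+/+ against 277, 265 and 238 in Emcn-/- (-0.38 ± 0.11, limma adjusted p = 0.479). The sialomucin Podxl2 had 2602, 2520.1 and 2467 in Emcn+/+ against 2879, 2788 and 2651 in Emcn-/- (0.13 ± 0.05, limma adjusted p = 0.577). The genotypes did not overlap for these 3, chosen for their p. Among the 64 tested they did not overlap for 3 higher in Emcn-/- and 6 lower, Emcn included, against 14.4% of all tested genes in either direction.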

How the data were processed

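Retinal poly-A RNA from 3 Emcn+/+ and 3 Emcn-/- samples was sequenced, per the labels' protocols. GRCm38 was the genome build, per the submitters' processing notes. Aligner, read counter and annotation release were not given in the sources used here. Per gene, the authors deposited a read signal scaled by 1 factor per library: 100% of values were whole multiples of 1 step per library (tolerance 0.001 of a read), so reads were recovered. Totals were 14865868 to 17087621, and a count of 0 allows up to 3 reads, 2.77 to 3.28 normalised reads. Both this limit and the intervals on ratios describe counting error alone.

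Positions and exonic lengths came from GENCODE M21 for 27390 of 28627 IDs, and promoter windows from RefSeq (GRCm38.p6). A symbol with several IDs was represented by the most abundant. The test was limma 3.58.1 under R 4.3.3, using the intensity trend, a pseudocount of 1 before log2 and no term but genotype, on 16681 genes kept by edgeR's filter (minimum count 10) on the recovered reads, with Benjamini-Hochberg adjustment over all of them and a threshold of 0.05. Fold changes on that scale understate the change of low genes. edgeR 4.0.16 and DESeq2 1.42.0 on the recovered reads were alternatives, with other scalings, filters, pseudocounts, sex, title-number series, a trend on exonic length removed by loess, and each library left out. Values within a library were given per kb of exon where genes were compared. Simulated data with 200 changed genes in each of 3 runs (16681 genes) were used as a check: limma found 45.0% of the genes changed 1.5-fold, 73.2% at 2-fold and 89.2% at 4-fold, and made 31 false calls. The simulated counts were drawn independently, without differences between libraries shared by many genes, such as sex or lens tissue. Each run also changed 200 genes, where limma called 1 gene in the real data. These shares therefore do not give the power of the test for the members. Replicate numbers follow sample order and pair nothing.

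The members and lists were chosen with earlier results of these data known. By the rule for named genes, values in every library were given for the 12 tested members with the smallest p, those without overlap of the genotypes, C1galt1, C1galt1c1, the 4 supply genes and the highest per kb in each role, and the 4 genes of the wider pathway lists with the smallest p were named. Galnt12, Gcnt1 and the main St6galnac2 ID fall outside that rule and were added after their values were seen.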

Additional observations from a re-analysis of the deposited data

Results flagged for a closer look

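Within the 4 low-numbered libraries, 18 of 40 members had values apart by genotype, where 46% of all tested genes did. For 11 of the 18 the difference had the opposite sign in the high-numbered pair, and for 7 the same sign; of all genes apart, 41.5% had the opposite sign. Neither these opposite signs nor their share beside that of all genes was tested, and the high-numbered series holds 1 library per genotype. The difference in log2 fold change, high-numbered minus low-numbered, was -1.41 for Gcnt1, -0.60 for Gcnt4, -0.40 for St3gal4, -0.32 for Galnt11, -0.32 for St8sia5, -0.16 for Galnt1 and -0.12 for St3gal1. It was 0.65 for C1galt1, 0.38 for Galnt13, 0.35 for St6gal2 and 0.33 for St8sia1. Emcn+/+ replicate 3, the female library, belongs to the high-numbered pair.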

How the results depend on the processing

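The count of members called stayed at 0 under every alternative run, among 38 members with a mean of at least 50, 20 with DESeq2 and 40 elsewhere. The number of genes called over all genes was 1 with limma, 0 with a mean of at least 50, 153 with sex as a term (only Emcn+/+ replicate 3 is female, so this term fits that library alone and its log2 fold changes equal those without it), 82 with DESeq2, 67 with DESeq2 without its filter, and 0 to 151 with 1 library left out, the 151 without Emcn+/+ replicate 3. With 1 library left out, group medians ran from -0.17 to 0.07 for the core and branching genes (positive without Emcn+/+ replicate 3 or Emcn-/- replicate 2), -0.04 to -0.01 for the alpha-2,6 group, -0.16 to -0.03 for alpha-2,8 (the last without Emcn+/+ replicate 1), 0.03 to 0.10 for alpha-2,3, 0.02 to 0.05 for the GalNAc transferases and 0.04 to 0.14 for the supply genes. The median log2 fold change of the members was -0.01, 0.0169 with sex as a term, and -0.0195 to 0.0351 with 1 library left out. Pathway list calls were 1 (Emcn), 0 with the mean of at least 50, where Emcn with a mean of 47.0 was not tested, 0 with DESeq2, which gave Emcn no adjusted p (log2 fold change -5.14), and 0 to 1 with 1 library left out. The call was lost without Emcn+/+ replicate 1, Emcn+/+ replicate 2 or Emcn-/- replicate 1, with Emcn still at -4.82, -4.92 and -4.77 (limma adjusted p = 0.0924, 0.191 and 0.155). The replicate numbers follow accession order and pair no samples. With the title-number series as a term (both genotypes in each), log2 fold changes were the same, 1 gene was called, and limma adjusted p was 0.278 for St6galnac4, 0.388 for Nans, 0.417 for Galnt16 and 0.530 for St6gal1. Of 40 members, 21 changed sign under no alternative. Members whose genotypes did not overlap could not change sign with 1 library left out. Of 240 values with 1 library left out 30 changed sign, and of the other 479 values 18 did. Those were Galnt2 (-0.00316 with TMM, -0.00240 with the length trend removed, -0.00788 with edgeR, -0.00585 with DESeq2 with and without its filter), St3gal2 (0.00254 with upper-quartile scaling, 0.00340 with the length trend removed), and St6gal2 (-0.00595 with TMM, -0.104 with sex as a term, -0.0145 with edgeR, -0.0128 with DESeq2 with and without its filter). With sex as a term the signs of Gcnt1 (0.186), Gcnt2 (0.0659), Gcnt4 (0.0296), St6galnac2 (0.00873), St6galnac5 (0.0519) and Cmas (-0.0164) also changed, as they did without Emcn+/+ replicate 3. With 1 library left out the ranges of the sign-changing members were C1galt1 -0.176 to 0.0980, Cmas -0.0164 to 0.0622, Galnt13 -0.221 to 0.0195, Galnt17 -0.276 to 0.0570, Galnt18 -0.0211 to 0.121, Galnt2 -0.0923 to 0.0547, Galnt4 -0.0282 to 0.0180, Gcnt1 -0.458 to 0.186, Gcnt2 -0.177 to 0.135, Gcnt4 -0.176 to 0.0296, St3gal2 -0.0344 to 0.0523, St3gal3 -0.0521 to 0.0397, St3gal4 -0.0377 to 0.216, St3gal5 -0.0130 to 0.106, St6gal2 -0.104 to 0.0603, St6galnac2 -0.192 to 0.00873, St6galnac3 -0.262 to 0.0170, St6galnac5 -0.205 to 0.0519 and St8sia5 -0.0360 to 0.163.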
